A study of Bos taurus with 8 samples.

Results

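IFIH1, DHX58, EIF2AK2 and MAVS are 4 genes of the response to double-stranded RNA in the cytosol, and they were chosen by name among the 21861 genes that the scRNA-seq tables list. All 4 were found there, and the same identifiers were found in the scATAC-seq tables. Whole blood of 4 Holstein cattle (2-year-old lactating females) was pooled, and the pool was split into 4 parts. One part was left without LPS, and the others were treated with 2 µg/ml LPS, a bacterial cell wall lipid that mononuclear cells sense, for 2 h, 4 h or 8 h at 37 °C. Peripheral blood mononuclear cells (PBMCs) were then isolated, and scRNA-seq and scATAC-seq each had 1 library from every part. With 1 library per treatment no difference has a replicate check, so no test was made, and every interval below is a 95% interval that covers counting error only. How long the untreated part was incubated is not given in the sources used here, so LPS and time in incubation cannot be told apart.

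IFIH1 encodes MDA5, a helicase that binds long double-stranded RNA, and DHX58 encodes LGP2, a related helicase without a signalling domain that regulates MDA5 and RIG-I. MDA5 signals through MAVS, an adaptor in the outer mitochondrial membrane, to kinases and transcription factors that switch on type I interferon genes. EIF2AK2 encodes PKR, a kinase that binds double-stranded RNA and phosphorylates the translation factor eIF2. IFIH1, DHX58 and EIF2AK2 are themselves known as interferon-stimulated genes, whereas MAVS is not, and LPS itself is sensed by TLR4 at the membrane and not by these proteins.

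After the limits on cells the libraries held 7821 (no LPS), 9865 (2 h), 7387 (4 h) and 3411 (8 h) cells. Their UMIs (unique molecular identifiers, which count captured RNA molecules) summed to 38503367, 47875879, 40160248 and 16657841. Without the upper limit on genes per cell, given with the processing, the libraries held 8440, 10376, 7929 and 3830 cells. Their UMIs then summed to 57995336, 63720614, 56408291 and 30879324. The cells above this limit thus held many UMIs each, and the part of UMIs left out was largest at 8 h. Unless stated otherwise, all RNA values describe only the cells kept. Any 2 libraries shared 6 to 21 cell barcodes, at most 0.352% of the smaller library. Cells were classed by 1 marker gene: a class held the cells with a UMI of CD14 (monocytes), CD3E (T cells), MS4A1 (B cells) or NCR1 (NK cells) and none of the other 3 genes. Cells with more than 1 of these genes, among them possible doublets, and cells with none stayed outside the classes. In order of time the CD14-gated class held 796, 382, 151 and 170 cells, or 10.2%, 3.87%, 2.04% and 4.98% of the cells kept. The CD3E-gated class held 1550 to 4937 cells per library, the MS4A1-gated class 663 to 2392 and the NCR1-gated class 38 to 97. Summed over each list, markers not used for the gates were highest in the class of their list, although single genes went another way. The summed level of 7 monocyte markers was 1236 to 2698 CPM (UMIs scaled to a library total of 1e6) in CD14-gated cells and at most 28.8 CPM in the other 3 classes, and that of 7 B cell markers was 1301 to 1870 CPM in MS4A1-gated cells and at most 151 CPM elsewhere. The sum of 7 T cell markers was 933 to 1029 CPM in CD3E-gated cells and also 551 to 642 CPM in NCR1-gated cells, where the sum of 6 NK cell markers was 2688 to 3141 CPM. BLK, listed for B cells, was at 89.9 to 114 CPM in CD3E-gated and 22.3 to 34.9 CPM in MS4A1-gated cells, and LCK, listed for T cells, was higher in NCR1-gated than in CD3E-gated cells in every library. Marker levels and depth of the CD14-gated class differed between the libraries. Its median depth was 8293, 10468, 5906 and 1550.5 UMIs in order of time, and its summed monocyte markers were at 2698, 1482, 1236 and 1544 CPM. Among these, CSF1R was at 130, 52.6, 59.4 and 84.0 CPM and CSF3R, the G-CSF receptor, at 10.7, 39.5, 106 and 43.2 CPM. In the same cells the T cell list summed to 26.2, 22.5, 62.6 and 102 CPM, the B cell list to 23.9, 17.8, 45.9 and 114 CPM, the NK cell list to 43.3, 22.8, 95.1 and 149 CPM and the plasma cell list to 303, 53.9, 18.2 and 133 CPM. The part of these shifts in the values of CD14-gated cells at 4 h and 8 h was not tested.

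Over all cells kept, IFIH1 RNA was higher at every LPS time than without LPS and highest at 4 h. Its level was 45.7 CPM [43.5 to 47.8] without LPS (1758 UMIs), 145 CPM [142 to 148] at 2 h (6940 UMIs), 240 CPM [235 to 244] at 4 h (9624 UMIs) and 68.4 CPM [64.5 to 72.5] at 8 h (1139 UMIs). None of these 4 intervals overlapped another. The ratio to no LPS was 3.17 [3.01 to 3.35] at 2 h, 5.25 [4.99 to 5.53] at 4 h and 1.5 [1.39 to 1.61] at 8 h. Between 4 h and 8 h the level of IFIH1 went to 0.29 [0.27 to 0.30] of its value.

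DHX58 RNA followed later than IFIH1. It was at 12.3 CPM [11.2 to 13.5] without LPS (474 UMIs), 23.0 CPM [21.7 to 24.4] at 2 h (1102 UMIs), 63.7 CPM [61.3 to 66.3] at 4 h (2560 UMIs) and 20.8 CPM [18.7 to 23.1] at 8 h (347 UMIs). The 2 h and 8 h intervals overlapped, and both lay above no LPS and far below 4 h. Ratios to no LPS were 1.87 [1.68 to 2.09], 5.18 [4.69 to 5.72] and 1.69 [1.47 to 1.95] in order of time, and the step from 2 h to 4 h was 2.77-fold [2.58 to 2.97].

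EIF2AK2 RNA was little higher at 2 h and took most of its step between 2 h and 4 h. Its level was 28.1 CPM [26.5 to 29.8] without LPS (1082 UMIs), 34.9 CPM [33.3 to 36.6] at 2 h (1672 UMIs), 119 CPM [116 to 123] at 4 h (4798 UMIs) and 47.5 CPM [44.3 to 51.0] at 8 h (792 UMIs). The kinase was thus at 1.24 times [1.15 to 1.34] its level without LPS at 2 h, 4.25 times [3.98 to 4.55] at 4 h and 1.69 times [1.54 to 1.86] at 8 h. Its step from 2 h to 4 h was 3.42-fold [3.23 to 3.62], and unlike IFIH1 it stood higher at 8 h than at 2 h, by 1.36-fold [1.25 to 1.48].

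The adaptor MAVS showed no such course. It gave only 90, 90, 89 and 48 UMIs in order of time, or 2.34 CPM [1.88 to 2.87], 1.88 CPM [1.51 to 2.31], 2.22 CPM [1.78 to 2.73] and 2.88 CPM [2.12 to 3.82]. Its ratios to no LPS were 0.80 [0.59 to 1.09] at 2 h, 0.95 [0.70 to 1.29] at 4 h and 1.23 [0.85 to 1.77] at 8 h, and all 3 intervals include 1. Between 2 h and 8 h, however, its level differed by 1.53-fold [1.06 to 2.20]. The median log2 ratio of all genes tested to no LPS was -0.04 at 2 h and 0.12 at 8 h. TMM scaling, an alternative given below, shifts log2 ratios to no LPS by 0.02 at 2 h and -0.11 at 8 h. Part of this MAVS difference thus depends on the scaling, and its interval was not computed with TMM. A doubling over no LPS at any of the 3 times would lie outside the interval, and a smaller change could go unseen.

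**Figure D1:**
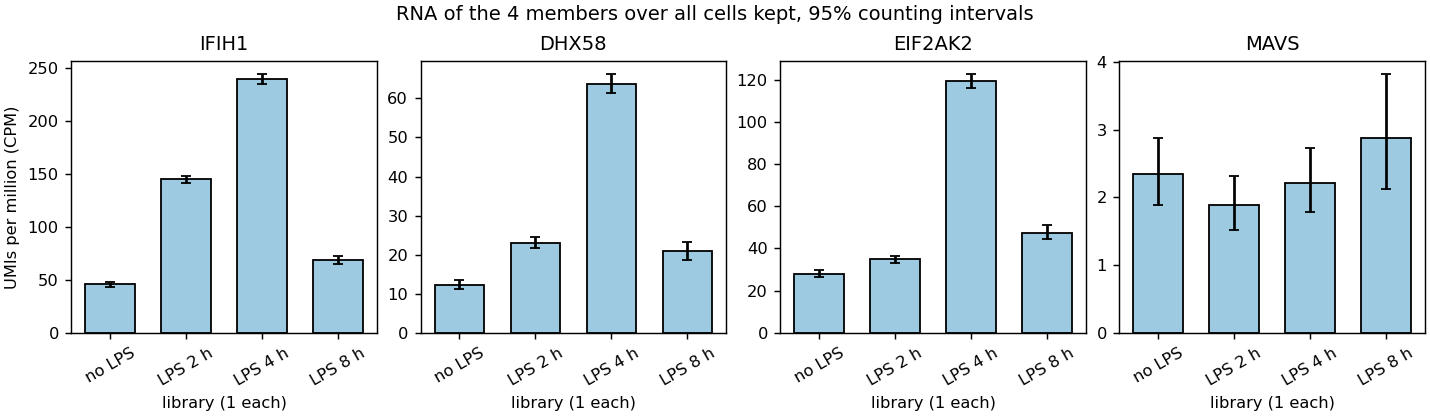
RNA level of each gene in CPM in the 4 scRNA-seq libraries, over all cells kept, with 95% counting intervals and separate axes. IFIH1, DHX58 and EIF2AK2 are highest at 4 h (240, 63.7 and 119 CPM), IFIH1 is already at 145 CPM at 2 h, and MAVS stays between 1.88 and 2.88 CPM.

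The 3 inducible genes therefore differed in timing. At 2 h the ratio of IFIH1 exceeded that of DHX58 by 1.70-fold [1.51 to 1.91] and that of EIF2AK2 by 2.55-fold [2.33 to 2.80], and the ratio of DHX58 exceeded that of EIF2AK2 by 1.5-fold [1.32 to 1.72]. By 4 h IFIH1 and DHX58 no longer differed beyond counting error, at a quotient of ratios of 1.01 [0.91 to 1.13], and IFIH1 exceeded EIF2AK2 by 1.23-fold [1.14 to 1.34]. At 8 h the quotients were 0.89 [0.76 to 1.04] for IFIH1 over DHX58 and 0.89 [0.79 to 0.996] for IFIH1 over EIF2AK2. The median log2 ratio over all genes was 0.12 at 8 h, beside 0.58 for IFIH1, 0.76 for DHX58 and 0.76 for EIF2AK2. The order of the ratios at 2 h was thus IFIH1, DHX58, EIF2AK2 and MAVS, with no 2 neighbours alike within counting error.

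Among all genes with at least 20 UMIs over the 2 libraries compared, 2.05% were at least 2-fold higher at 2 h, 2.61% at 4 h and 2.78% at 8 h than without LPS, and 5.44%, 7.6% and 5.34% were at least 2-fold lower. Of the 4 genes, 1 was at least 2-fold higher at 2 h (IFIH1), 3 at 4 h (IFIH1, DHX58 and EIF2AK2) and 0 at 8 h, and 0 were 2-fold lower at any time. From 2 h to 4 h, 1.44% of all genes were at least 2-fold higher and 2.92% at least 2-fold lower, and DHX58 and EIF2AK2 were among the higher ones. From 4 h to 8 h, 3.61% of genes were at least 2-fold higher and 1.26% at least 2-fold lower, and the lower ones held IFIH1, DHX58 and EIF2AK2.

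For reference, 8 other interferon-stimulated genes were taken. ISG15, a ubiquitin-like modifier, had ratios to no LPS of 7.39 [7.20 to 7.59], 18.1 [17.6 to 18.5] and 2.09 [2.01 to 2.16] at 2 h, 4 h and 8 h. IFIT2 had ratios of 5.08, 11.5 and 1.15, and IFIT1 of 3.89, 11.2 and 1.07, and these 3 genes, like IFIH1, were above 3-fold at 2 h. MX1 (2.92, 10.2 and 1.81), IFIT3 (2.33, 16.8 and 1.39) and RSAD2 (1.69, 7.88 and 1.63) lay lower at 2 h. OAS1Y (1.54, 11.5 and 1.73) and USP18 (1.42, 3.22 and 1.24) were the nearest to EIF2AK2 at 2 h.

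By cell class, IFIH1 was highest in NCR1-gated cells in every library other than that of 4 h, when MS4A1-gated cells stood beside them. In CD14-gated cells its level was 16.7, 38.2, 109 and 16.3 CPM in order of time (116, 146, 137 and 14 UMIs). CD3E-gated cells had 49.8, 90.4, 161 and 65.8 CPM (759, 1969, 3161 and 547 UMIs). MS4A1-gated cells had 51.5, 257, 359 and 69.7 CPM (404, 3169, 4115 and 274 UMIs), and NCR1-gated cells 114, 343, 330 and 179 CPM (33, 162, 171 and 47 UMIs). The CD14-gated class was thus the lowest in every library, and T and B cells started from levels that did not differ beyond counting error (CD3E over MS4A1 0.97 [0.86 to 1.10]) and returned to such levels at 8 h (0.94 [0.81 to 1.09]). The order from high to low was NCR1, MS4A1, CD3E, CD14 in the first library, with only the MS4A1 and CD3E neighbours alike. At 4 h MS4A1-gated and NCR1-gated cells were alike (1.09 [0.93 to 1.28]).

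The early step of IFIH1 was largest in B cells, a lead over CD14-gated cells that lay within counting error once the cells richest in IFIH1, described further on, were left out. At 2 h the ratio to no LPS was 5.0 [4.51 to 5.56] in MS4A1-gated cells, 2.99 [2.05 to 4.50] in NCR1-gated cells, 2.29 [1.78 to 2.94] in CD14-gated cells and 1.81 [1.67 to 1.97] in CD3E-gated cells. The ratio in CD3E-gated cells was 0.36 [0.32 to 0.41] of that in MS4A1-gated cells, and the ratio in CD14-gated cells 0.46 [0.35 to 0.60] of it. At 4 h the ratios were 6.97 [6.30 to 7.74] in MS4A1-gated, 6.49 [5.03 to 8.38] in CD14-gated, 3.23 [2.98 to 3.50] in CD3E-gated and 2.88 [1.97 to 4.32] in NCR1-gated cells. CD14-gated and MS4A1-gated cells then did not differ beyond counting error (0.93 [0.71 to 1.22]), with the marker levels of the CD14-gated class shifted as given above. NCR1-gated cells were at like levels at 2 h and 4 h, with a step of 0.96 [0.77 to 1.2], whereas CD14-gated cells rose 2.84-fold [2.23 to 3.61] between these times. However, 3 NCR1-gated cells held 64 of the 162 UMIs at 2 h, and 1 cell held 12 of the 171 UMIs at 4 h. Without these cells 98 and 159 UMIs were left, so the like levels depend on them.

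DHX58 was highest in MS4A1-gated cells in all 4 libraries, although the few NCR1-gated UMIs leave these 2 classes undistinguished without LPS and at 8 h. Its level there was 20.8, 43.5, 103 and 33.1 CPM (163, 535, 1178 and 130 UMIs), against 8.47, 15, 43.6 and 14.5 CPM in CD3E-gated cells (129, 326, 858 and 121 UMIs). B cells thus stood 2.27 to 2.90 times above T cells in every library, and the ratios to no LPS at 4 h were near each other, at 4.95 [4.2 to 5.87] and 5.15 [4.28 to 6.25]. CD14-gated cells had 10.2, 6.81, 30.1 and 16.3 CPM (71, 26, 38 and 14 UMIs), so that at 2 h their ratio of 0.66 [0.41 to 1.06] was 0.38 [0.23 to 0.62] of that of CD3E-gated cells. The 71 UMIs without LPS lay in 53 cells, and 1 cell of that library held 19 DHX58 UMIs. The class of that cell and its part in this ratio were not examined. NCR1-gated cells gave only 3 to 14 UMIs of DHX58 (10.4, 12.7, 27 and 11.4 CPM), and no ratio to no LPS in them had an interval that excluded 1.

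EIF2AK2 had the most even course over the classes. It was at 39.8, 50.4, 166 and 62.6 CPM in MS4A1-gated cells (312, 620, 1905 and 246 UMIs) and at 28.1, 29.9, 94.0 and 42.6 CPM in CD3E-gated cells (428, 651, 1848 and 354 UMIs). CD14-gated cells had 13.4, 19.1, 49.9 and 23.3 CPM (93, 73, 63 and 20 UMIs), and NCR1-gated cells 20.8, 25.4, 75.2 and 30.5 CPM (6, 12, 39 and 8 UMIs). B cells were the highest and monocytes the lowest in each library. However, MS4A1-gated and NCR1-gated cells were not resolved without LPS (1.91 [0.87 to 5.25]), and the NCR1-gated cells did not differ from the CD14-gated cells beyond counting error in any library. The ratio at 4 h was 4.18 [3.71 to 4.73] in MS4A1-gated, 3.72 [2.66 to 5.18] in CD14-gated, 3.61 [1.52 to 10.4] in NCR1-gated and 3.34 [3.01 to 3.72] in CD3E-gated cells, and at 2 h it was at most 1.43 [1.03 to 1.957], in CD14-gated cells.

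**Figure D2:**
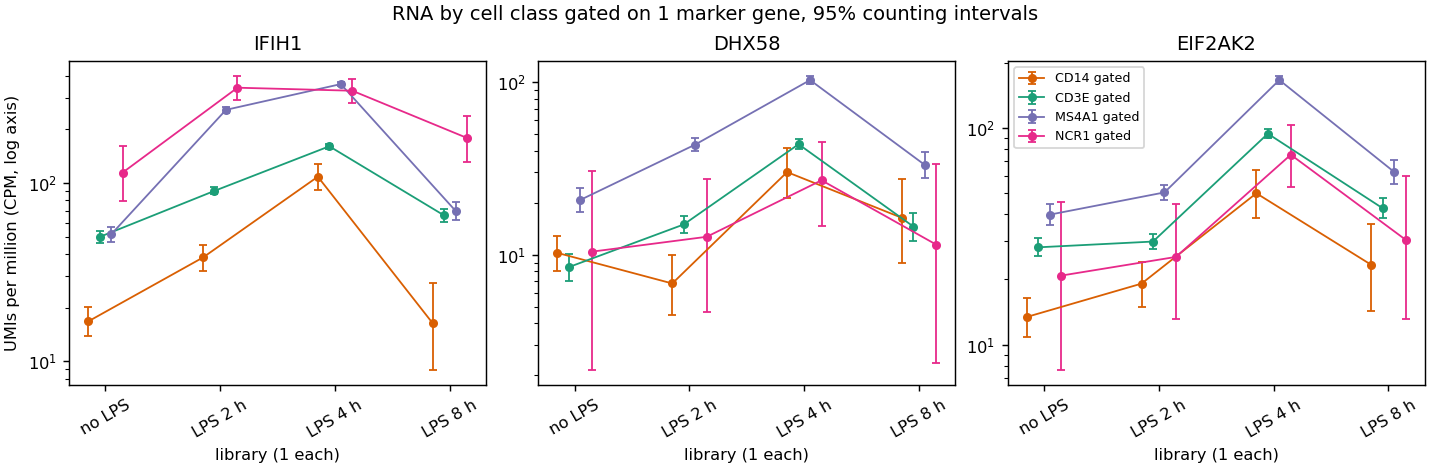
RNA level (CPM, log axis) of IFIH1, DHX58 and EIF2AK2 in the 4 gated classes of each library, with 95% counting intervals. For IFIH1 the MS4A1-gated cells leave the CD3E-gated cells between no LPS (51.5 and 49.8 CPM) and 2 h (257 and 90.4 CPM), while for DHX58 these classes run in parallel with the MS4A1-gated cells above. For EIF2AK2 the MS4A1-gated cells are also above, and at 4 h the ratio to no LPS of CD3E-gated cells is 0.80 [0.68 to 0.94] of theirs.

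MAVS was too sparse for a comparison of classes over time, with 0 to 42 UMIs per class and library. Its ratios to no LPS had intervals including 1 in all 4 classes at all 3 times. The share of MS4A1-gated cells with a MAVS UMI was 1.36%, 1.00%, 1.37% and 2.11% in order of time. No class here is known to lack MAVS, so its level of free RNA could not be measured.

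The background by class was read in the same way. In CD14-gated cells 5.13%, 7.8% and 13.2% of genes were at least 2-fold higher than without LPS at 2 h, 4 h and 8 h. The shares were 1.38%, 2.04% and 2.3% in CD3E-gated cells, 3.46%, 3.54% and 2.45% in MS4A1-gated cells and 4.92%, 5.99% and 4.44% in NCR1-gated cells. IFIH1 was past this limit at 2 h in the CD14-gated, MS4A1-gated and NCR1-gated classes, and DHX58 at 2 h in MS4A1-gated cells. At 4 h IFIH1, DHX58 and EIF2AK2 were past it in the CD14-gated, CD3E-gated and MS4A1-gated classes, and IFIH1 and EIF2AK2 were the 2 genes with enough UMIs in NCR1-gated cells and both were past it. At 8 h 0 of the genes were past it in any class.

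With more IFIH1 RNA also came more cells with it. In order of time an IFIH1 UMI was seen in 17.4%, 30.8%, 47.3% and 23.7% of cells, or in 4.80% [4.32 to 5.31], 10.9% [10.3 to 11.6], 17.4% [16.5 to 18.3] and 7.05% [6.17 to 8.02] once each cell was thinned to 1000 UMIs (508, 429, 284 and 377 shallower cells left out). In MS4A1-gated cells the thinned share was 5.13%, 15.6%, 23.8% and 8.72%, while that of CD3D in them was at most 1.45%. EIF2AK2 had thinned shares of 2.95%, 3.85%, 11.5% and 4.02% over all cells and DHX58 of 1.29%, 2.15%, 5.87% and 2.01%. No blood cell class is known to lack these 3 genes, so their own level of free RNA could not be measured. UMIs of IFIH1, DHX58 and EIF2AK2 in the same cell were found in 30, 122, 797 and 50 cells in order of time. These were 0.384%, 1.24%, 10.8% and 1.47% of the cells kept, without thinning.

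IFIH1 UMIs were spread unevenly over cells. The cell with the most held 28, 63, 54 and 6 IFIH1 UMIs in order of time, whereas no cell had more than 9 UMIs of EIF2AK2 in any library. For DHX58, which had fewer UMIs than either, the cell with the most held 19, 7, 11 and 3. Cells with at least 10 IFIH1 UMIs, a limit set after the values were seen, numbered 1, 95, 119 and 0 in order of time. The 95 cells at 2 h were 0.963% [0.780 to 1.18] of the cells and held 23.6% of the IFIH1 UMIs, and the 119 cells at 4 h were 1.61% [1.34 to 1.92] and held 19.4%. Of the 95 cells 72 were MS4A1-gated, 6 CD3E-gated, 3 NCR1-gated and 1 CD14-gated, and of the 119 cells 78 were MS4A1-gated and 15 CD3E-gated. These cells made up 3.01% [2.36 to 3.78] of MS4A1-gated cells at 2 h and 4.12% [3.27 to 5.11] at 4 h, against 0.122% [0.0446 to 0.264] and 0.389% [0.218 to 0.641] of CD3E-gated cells. They were deeper than the rest, with medians of 8244 UMIs at 2 h and 9754 UMIs at 4 h against 4076 and 4757 UMIs over all cells kept, and 9 and 10 of them had more than 1 gate gene. The part of depth and doublets in these counts was not tested.

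**Figure D3:**
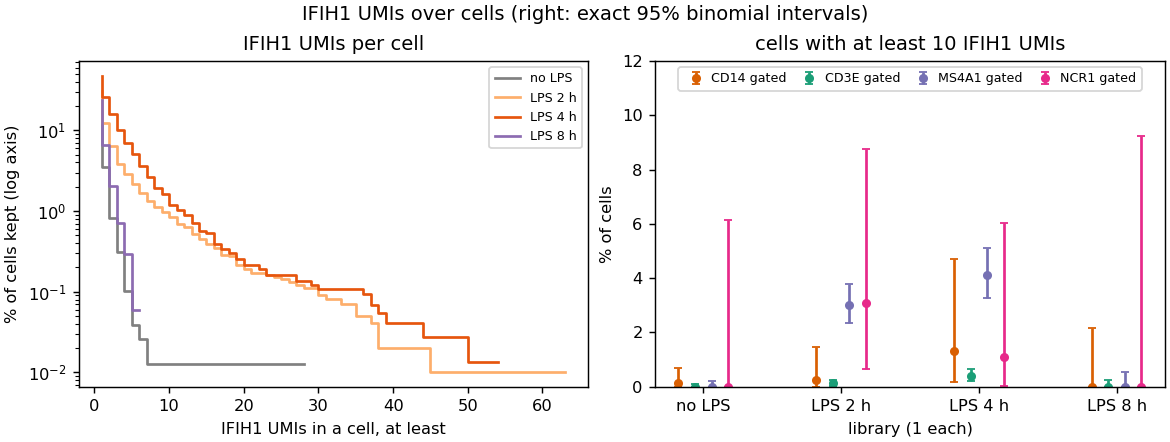
Left, the percentage of cells kept (log axis) that held at least a given number of IFIH1 UMIs in each library. Right, the percentage of cells with at least 10 IFIH1 UMIs in each gated class with exact 95% binomial intervals; it reaches 3.01% and 4.12% of MS4A1-gated cells at 2 h and 4 h and is 0% in the CD3E-gated, MS4A1-gated and NCR1-gated cells without LPS and in all 4 classes at 8 h.

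The IFIH1-rich cells among the MS4A1-gated ones also differed in other interferon-stimulated genes, given here in CPM. At 2 h the 72 cells had 14302 CPM of ISG15 against 2011 CPM in the other MS4A1-gated cells, a ratio of 7.11 [6.94 to 7.29]. RSAD2, which encodes the antiviral enzyme viperin, was at 328 against 8.54 CPM (38.4-fold [30.03 to 49.3]), IFIT2 at 775 against 55.9 CPM (13.9-fold [12.3 to 15.6]) and DHX58 at 159 against 37.5 CPM (4.24-fold [3.36 to 5.30]). EIF2AK2 was not higher in them at 2 h, with 38.1 against 51.0 CPM (0.75 [0.47 to 1.13]), and DDX58, which encodes RIG-I, was 1.65-fold [1.03 to 2.52] higher. At 4 h the same contrasts, over 78 cells, were 2.94-fold for ISG15, 7.19-fold for RSAD2, 3.06-fold for IFIT2, 2.29-fold [1.94 to 2.70] for DHX58, 1.68-fold [1.44 to 1.95] for DDX58 and 1.22-fold [1.03 to 1.44] for EIF2AK2. The signalling subunits of the B cell receptor were lower in these cells, CD79A at 0.36 times [0.26 to 0.48] and CD79B at 0.34 times [0.27 to 0.42] the level of the others at 2 h, while the B cell transcription factor PAX5 was 1.68-fold [1.2 to 2.29] higher. The T cell gene CD3D had 3 UMIs in them and 20 in the others (2.91-fold [0.55 to 9.80]). The 22 genes compared in these cells were chosen after their values were seen.

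Without the cells of at least 10 IFIH1 UMIs, the log2 ratio of IFIH1 to no LPS at 2 h was 1.66 in MS4A1-gated cells (2.32 with them), 1.46 in CD14-gated cells (1.19), 0.92 in NCR1-gated cells (1.58) and 0.80 in CD3E-gated cells (0.86). The values of MS4A1-gated and NCR1-gated cells both moved by more than 1.5-fold, as 72 cells held 39.8% of the IFIH1 UMIs of the first class and 3 cells held 39.5% of those of the second. The ratio in CD14-gated cells was then 0.87 [0.65 to 1.16] of that in MS4A1-gated cells, so their order was not resolved, while the quotients for CD3E-gated (0.55 [0.48 to 0.63]) and NCR1-gated cells (0.60 [0.40 to 0.90]) stayed below 1. At 4 h the quotient for CD14-gated cells was 1.37 [1.02 to 1.84]. A single CD14-gated cell held 28 of the 116 IFIH1 UMIs of that class without LPS, or 24.1%, and the value of the class is higher without it.

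In the scATAC-seq libraries, which count transposase cuts in open chromatin, IFIH1 stayed near 1 level while DHX58 and EIF2AK2 were higher at 4 h than at 2 h and 8 h. These libraries held 975012, 30250143, 26837579 and 11957904 counts in order of time over 3121, 4172, 3231 and 3163 barcodes, so the library without LPS was shallow, with a median of 213 counts per barcode against 2250 to 5205. IFIH1 had 191, 4739, 4748 and 2227 counts, or 196 CPM [159 to 239], 157 CPM [150 to 163], 177 CPM [170 to 184] and 186 CPM [175 to 198] (counts scaled in the same way). Its accessibility stayed within these limits while its RNA rose and fell, with ratios to no LPS of 0.80 [0.65 to 0.99], 0.90 [0.74 to 1.12] and 0.95 [0.77 to 1.18] at 2 h, 4 h and 8 h. DHX58 had 34, 1202, 1325 and 325 counts, or 34.9, 39.7, 49.4 and 27.2 CPM, and EIF2AK2 had 14, 752, 878 and 231 counts, or 14.4, 24.9, 32.7 and 19.3 CPM. Both were higher at 4 h than at 2 h and 8 h, while against the shallow library without LPS the 4 h ratio was 1.42 [0.88 to 2.45] for DHX58, which is not resolved from 1, and 2.28 [1.10 to 5.70] for EIF2AK2.

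The comparison of successive LPS times rests on the deeper libraries. From 2 h to 4 h the scATAC-seq level changed by 1.13-fold [1.07 to 1.2] for IFIH1, 1.24-fold [1.11 to 1.39] for DHX58 and 1.32-fold [1.14 to 1.51] for EIF2AK2, and by 0.87 [0.75 to 1.00] for MAVS. From 4 h to 8 h DHX58 went to 0.55 [0.46 to 0.65] and EIF2AK2 to 0.59 [0.48 to 0.73] of their values, whereas IFIH1 (1.05 [0.98 to 1.13]) and MAVS (1.01 [0.83 to 1.22]) had intervals including 1. DHX58 and EIF2AK2 thus moved in the same direction as their RNA at both steps, and IFIH1 at the first. The intervals of these 3 genes for the step from 2 h to 4 h overlap one another, so their order is not resolved.

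MAVS had 43, 884, 681 and 306 counts, or 44.1, 29.2, 25.4 and 25.6 CPM, and lay below no LPS by 0.58 [0.37 to 0.94] at 4 h and 0.58 [0.37 to 0.96] at 8 h. Of the 4 genes 1 was at least 2-fold higher than without LPS, EIF2AK2 at 4 h, on 14 counts without LPS. Its log2 ratio there was 1.19, and 0.30 with only barcodes of at least 500 counts. Among all genes tested, 9.43% at 2 h, 8.5% at 4 h and 4.4% at 8 h were at least 2-fold higher than in the library without LPS. Between 2 h and 4 h 0.624% were at least 2-fold higher, and between 4 h and 8 h 6.27% were at least 2-fold lower, with 0 of the 4 genes past either limit. The rule by which the authors assigned cuts to genes is not given in the sources used here, so a promoter and a gene body cannot be told apart in these counts.

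**Figure D4:**
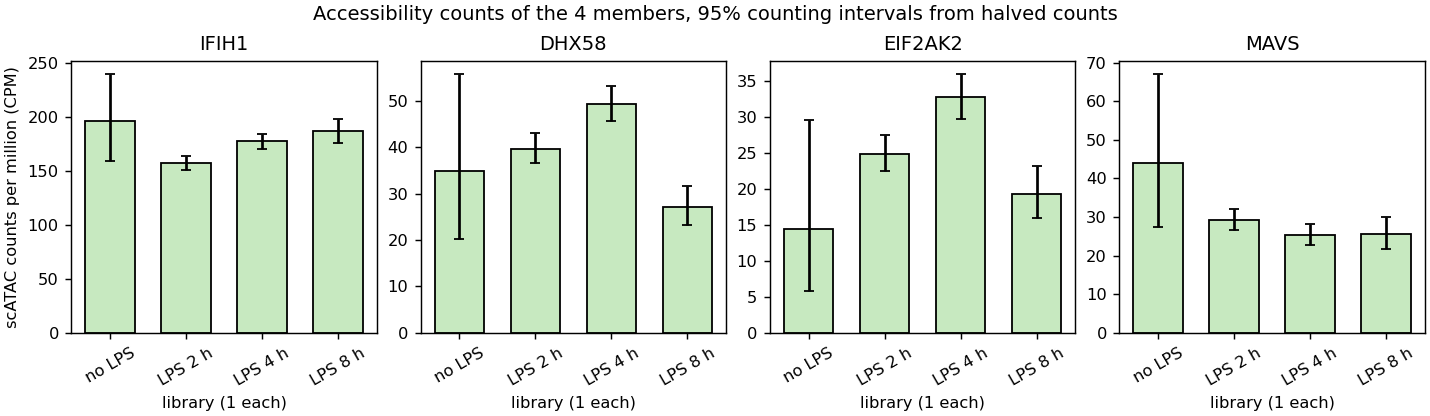
scATAC-seq level of each gene in CPM in the 4 libraries, with 95% counting intervals from halved counts and separate axes. IFIH1 stays between 157 and 196 CPM, DHX58 and EIF2AK2 are at 49.4 and 32.7 CPM at 4 h, above 2 h and 8 h, and the wide intervals without LPS reflect 14 to 191 counts.

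Around the 4 genes, 70 further genes of the pathway were listed by role, and 57 of them had enough UMIs at each time. At least 2-fold higher than without LPS were 2 of 57 at 2 h, 11 of 57 at 4 h and 1 of 57 at 8 h, and 1, 1 and 0 were at least 2-fold lower. Over all genes tested 2.05%, 2.61% and 2.78% were at least 2-fold higher and 5.44%, 7.6% and 5.34% at least 2-fold lower. Only the count of higher genes at 4 h stood well above these shares. The list was chosen with earlier results of these data known, so these counts are a description only. The median log2 ratio of the list was 0.12, 0.27 and 0.12 at 2 h, 4 h and 8 h, beside -0.04, 0.03 and 0.12 over all genes tested. The higher genes at 4 h lay in the sensing group and among the transcription factors.

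Of 13 tested genes listed under RNA sensing, 0 were at least 2-fold higher at 2 h and 9 were at 4 h. Of all genes tested, 2.05% and 2.61% were higher at these times. This group was chosen with earlier results of these data known and holds the OAS1 copies as separate genes. Its count is therefore a description and not a test of enrichment. DDX58 (RIG-I, the sensor of short and 5′-triphosphate RNA that shares MAVS with MDA5) was at 17.0, 18.2, 98.6 and 27.4 CPM in order of time. Like EIF2AK2 it took most of its step between 2 h and 4 h, with ratios to no LPS of 1.07 [0.97 to 1.19], 5.80 [5.34 to 6.31] and 1.61 [1.42 to 1.82], and its ratio at 4 h lay above that of EIF2AK2. The synthases that make 2′-5′-linked oligoadenylate on double-stranded RNA had ratios at 4 h of 15.7 (OAS2), 11.5 (OAS1Y) and 6.95 (OAS1X). OAS2 had 14 UMIs without LPS and was the 1 gene past 2-fold at 8 h, with 2.97 on 18 UMIs. How reads were assigned among the near-identical OAS1 copies was not examined, so their separate counts are uncertain. IFI44, which was listed in this group although it is not an established RNA sensor, had a ratio of 10.6 at 4 h. ZBP1, a sensor of Z-form nucleic acid, had a ratio of 5.37. TLR3, the endosomal double-stranded RNA receptor, was not past 2-fold at any time (1.03, 1.07 and 1.03).

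The genes between sensor and target were flatter at 4 h. Their median log2 ratio was then 0.06 for regulators and 0.03 for relay genes, against 2.23 for the genes listed under RNA sensing. Among 12 regulators tested, TNFAIP3, a brake on NF-κB signalling, was at 2.86 times its level without LPS at 2 h, and NLRX1 was at 0.35 at 2 h and 0.49 at 4 h, on 37 UMIs without LPS and 16 and 19 at these times. TRIM25, a ubiquitin ligase of RIG-I signalling, reached 1.81 at 4 h. Of 14 relay genes tested, NFKB1 was at 2.19 at 2 h and 0 were past 2-fold at 4 h or 8 h, and TBK1, the kinase that acts on IRF3, had ratios of 0.94, 0.91 and 0.94. A count of 0 higher genes among 14 is near the share of all genes, 2.61% at 4 h and 2.78% at 8 h. Of 7 transcription factors, IRF7 (1.62, 4.07 and 1.46) and STAT2 (1.22, 2.19 and 1.66) passed 2-fold, both at 4 h, and IRF3 (0.86, 1.33 and 1.14) did not.

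Around EIF2AK2, 0 of the 11 genes listed for the eIF2 arm were past 2-fold at any time. Among all genes tested, 2.05% to 2.78% were at least 2-fold higher, so a count of 0 higher genes among 11 is near that share. RNA levels do not measure the phosphorylation of eIF2, so the activity of this arm was not tested. The other eIF2 kinases EIF2AK1, EIF2AK3 and EIF2AK4 had ratios of 0.89 to 1.22 at the 3 times, and ATF4, the transcription factor translated when eIF2 is phosphorylated, had 1.13, 1.00 and 0.92. Of the 9 interferon ligands listed, IFNL3, IFNK and IFNE had 0 UMIs in all 4 libraries, which allows up to 3 UMIs in each, and the other 6 were not analysed here under the names used.

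**Figure D5:**
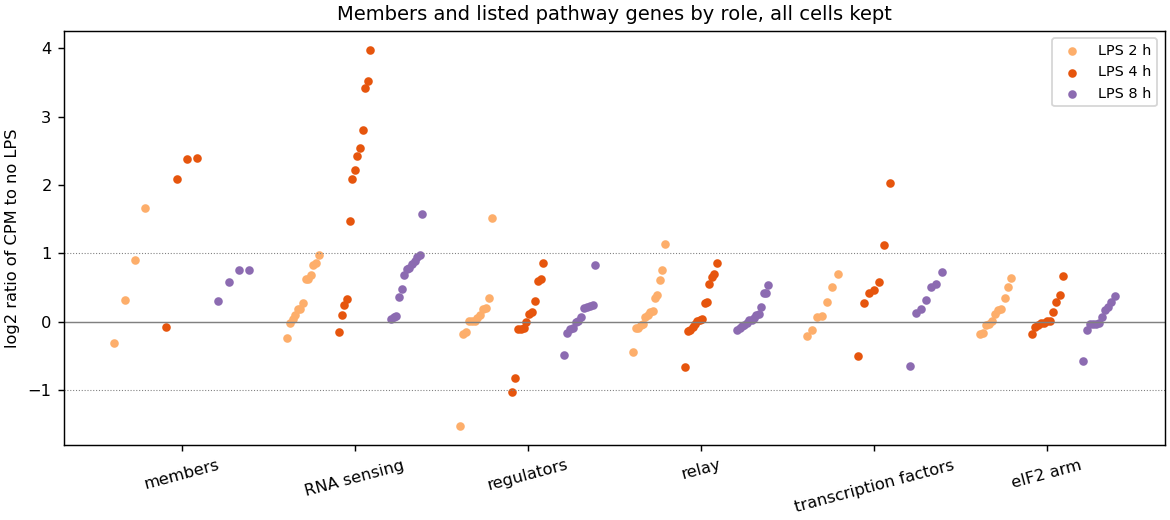
Log2 ratio of CPM to no LPS at 2 h, 4 h and 8 h for the 4 members and for the listed pathway genes by role; each point is a gene and dotted lines mark 2-fold. At 4 h 3 of the 4 members and 9 of 13 genes listed under RNA sensing lie above the upper line. Of the 14 relay and 11 eIF2 arm genes 0 do. The lists were chosen with earlier results of these data known. Of all genes tested at 4 h, 2.61% were at least 2-fold higher.

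The genes most alike to each member were found over 16 sums (4 gated classes in 4 libraries) among 9634 genes, as a description, since the sums share 4 libraries. For EIF2AK2 the highest Pearson correlations were with DDX58 (0.96), a gene listed only as ENSBTAG00000022489 (0.96), ZNFX1 (0.96), ZBP1 (0.93) and IRF7 (0.91). For DHX58 they were with MX1 (0.93), MX2 (0.93), EIF2AK2 (0.91), ZBP1 (0.91) and PSMA2 (0.87). IFIH1 stood apart, with PSMD11 (0.96), a proteasome subunit, BCL2L11 (0.89), which promotes apoptosis, ENTPD4 (0.87), IFIT2 (0.86) and IFI6 (0.85). Its correlation with DHX58 was 0.53 and with EIF2AK2 0.63. All 16 sums had equal weight, although the NCR1-gated sums held only 3 to 14 UMIs of DHX58 and 6 to 39 of EIF2AK2. The part of these sparse sums in the correlations was not examined. The genes most alike to MAVS were ANKS3, TBP, LRRC57, TMEM234 and AVL9 (0.82 to 0.85), on sums of 0 to 42 MAVS UMIs.

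The genes beside the members, by their order in the RefSeq annotation of the ARS-UCD2.0 assembly, were all below 2-fold where they had enough UMIs. GCA and FAP, on either side of IFIH1, had 1 to 10 UMIs per library, too few for a ratio. KAT2A, beside DHX58, had ratios to no LPS of 1.23, 1.63 [1.41 to 1.89] and 1.56, and CEBPZ, beside EIF2AK2, of 1.42, 1.47 and 1.32. GPATCH11 overlaps EIF2AK2 in that annotation and had 867, 1124, 1542 and 439 UMIs, with ratios of 1.04 [0.95 to 1.14], 1.71 [1.57 to 1.86] and 1.17 [1.04 to 1.31]. It was thus also highest at 4 h. The strands of this pair were not compared, and whether reads of the pair can be fully told apart was not examined. PANK2 and AP5S1, beside MAVS, had ratios of 0.89 to 1.23.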

How the data were processed

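The scRNA-seq tables that the authors deposited hold whole UMI counts for each gene in each barcode, from Cell Ranger with ARS-UCD1.2 (bosTau9) as genome. The deposited scATAC-seq tables also hold counts, not normalized, and their counting rule is not given in the sources used here; 88.7% to 93.8% of values above 0 were even, so intervals used counts divided by 2. Following the study's methods, a cell was kept if it had 200 to 3000 genes, 200 UMIs or more and less than 20% of UMIs from mitochondrial genes. These limits left more cells in every library (3411 to 9865 of 3860 to 10429 deposited barcodes) than the study states. No doublet caller was run. The UMIs of each library and class were added up and scaled to a total of 1e6 (CPM). Levels have exact Poisson intervals, ratios exact conditional binomial intervals and shares exact Clopper-Pearson intervals; quotients of ratios have intervals from the normal approximation on the log scale. Counting intervals assume UMIs are independent molecules. Background shares used genes with at least 20 UMIs (a 0 set to a floor of 3). No test was made. The members, the pathway, marker and reference lists and the limits were chosen with earlier results of these data known. Named are all members, the reference genes, pathway genes at least 2-fold changed on at least 50 UMIs (at most 5 in each direction), with others as examples chosen after their values were seen, and the 5 genes most alike to each member. Scaling by edgeR 4.0.16 (TMM) and DESeq2 1.42.0 was an alternative only. The ratio step was tested on simulated Poisson counts, with genes of many UMIs changed well past 2-fold, and found all genes that had been changed. Genes as sparse as MAVS and counts spread unevenly over cells were not covered by it. Python 3.11.15, numpy 2.4.6, scipy 1.17.1 and R 4.3.3 were used. The result of 1 listed pathway gene is not reported here.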

Additional observations from a re-analysis of the deposited data

Results flagged for a closer look

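Classes differed in direction for IFIH1 at 8 h, where the log2 ratio to no LPS was -0.033 [-0.95 to 0.77] in CD14-gated cells and 0.40 [0.24 to 0.56], 0.44 [0.21 to 0.66] and 0.64 [-0.03 to 1.33] in CD3E-gated, MS4A1-gated and NCR1-gated cells. The CD14-gated value rests on 14 UMIs at 8 h, and without the single CD14-gated cell of 28 IFIH1 UMIs in the library without LPS it was 0.36. DHX58 at 2 h was at -0.59 [-1.30 to 0.08] in CD14-gated cells and at 0.82 [0.52 to 1.13] in CD3E-gated and 1.07 [0.81 to 1.33] in MS4A1-gated cells. A single cell of the library without LPS held 19 DHX58 UMIs, and its part in these values was not examined. For MAVS at 2 h the values were -0.24 in CD14-gated, -0.59 in MS4A1-gated and 0.26 in CD3E-gated cells, and at 4 h they were -0.37 in MS4A1-gated and 0.44 in CD3E-gated cells, with intervals that all include 0. With 1 library per treatment, none of these differences between classes was tested.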

How the results depend on the processing

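No p-value was computed, no library could be left out and no paired analysis was possible because each treatment had 1 library per assay. Over all cells, 95 of 96 alternative values of the 12 RNA ratios kept their sign (MAVS at 8 h, at 0.30, was at -0.043 with every cell weighted equally), and 18 moved by more than the counting interval. With every cell weighted equally, the log2 ratio to no LPS (2 h, 4 h and 8 h) was 1.41, 2.10 and 0.39 for IFIH1 (1.67, 2.39 and 0.58 with UMIs summed), 0.18, 1.82 and 0.50 for EIF2AK2, and 0.73 at 2 h and 2.21 at 4 h for DHX58. With the classes held at their shares without LPS, IFIH1 was at 1.52, 2.26 and 0.42 and EIF2AK2 at 4 h at 1.95. Without an upper limit on genes IFIH1 was at 2.55 at 4 h and 0.71 at 8 h. TMM scaling and DESeq2 size factors both gave 0.47 for IFIH1 at 8 h, and they shifted all genes at 8 h by -0.11 and -0.11 on this scale. Without the cells of at least 10 IFIH1 UMIs, which were left out only once the data had been seen, IFIH1 was at 1.33 at 2 h and 2.15 at 4 h. Among 154 alternative values by class 12 moved, with IFIH1 in CD14-gated cells at 8 h between -3.34 (at least 2 CD14 UMIs) and 1.00 (cells with other gate genes kept). Counting only pathway genes with at least 100 UMIs left 0 at least 2-fold higher at 8 h.

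The share of scATAC-seq barcodes with a count moved with depth by its construction. Against the shallow library without LPS its log2 ratio was 3.51, 3.66 and 2.91 for IFIH1, 4.45, 4.83 and 3.05 for DHX58, 4.79, 5.27 and 3.62 for EIF2AK2 and 3.61, 3.70 and 2.63 for MAVS. Thus 7 of the 12 changed sign: IFIH1 and MAVS at all 3 times and DHX58 at 8 h. Size factors or a minimum of 500 counts per barcode moved none of the 12 scATAC-seq ratios out of their counting intervals, which are wide, but with that minimum EIF2AK2 at 2 h and 8 h (-0.091 and -0.46) and DHX58 at 8 h (0.21) changed sign. Of 120 alternative shares of cells with a UMI, 99 moved with the number of UMIs per cell.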

Other observations

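Cells outside the 4 classes followed the same course. In cells with none of the 4 gate genes IFIH1 was at 67.5, 167, 285 and 86.3 CPM in order of time, DHX58 at 16.7, 23.7, 60.0 and 22.3 CPM and EIF2AK2 at 35.5, 36.4, 124 and 64.7 CPM. In cells with more than 1 gate gene IFIH1 was at 44.7, 149, 276 and 72.3 CPM. The share of all IFIH1 UMIs that lay in MS4A1-gated cells was 23.0% [21.0 to 25.02] without LPS, 45.7% [44.5 to 46.8] at 2 h, 42.8% [41.8 to 43.8] at 4 h and 24.1% [21.6 to 26.6] at 8 h, while these cells held 20.4%, 25.7%, 28.5% and 23.6% of all UMIs. For DHX58 the share in MS4A1-gated cells was 34.4%, 48.5%, 46.0% and 37.5%. The IFIH1-rich MS4A1-gated cells at 2 h also had more BCL2A1, a survival gene (2.56-fold [2.48 to 2.65]), and more CXCR5, a chemokine receptor of B cells (2.17-fold [1.94 to 2.42]), than the other MS4A1-gated cells.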
